A study of Homo sapiens with 6 samples.

Results

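The cytosolic ribosomal protein genes encode the protein components of the small and the large subunit of the ribosome. They were taken from the deposited expression table as protein-coding genes whose symbol is RPL or RPS followed by digits, with an optional A, X, Y or L, or is RPLP0, RPLP1, RPLP2, RPSA or RPS27A, leaving out the RPS6K kinases. The rule found 88 of 27420 listed genes, of which 20311 are protein-coding. Levels are given for 86 of them, 33 small subunit and 53 large subunit genes; the Y-linked RPS4Y1 and RPS4Y2 are counted without a level. Of the 86, 8 are paralogs of another member (RPL3L, RPL7L1, RPL10L, RPL22L1, RPL26L1, RPL36AL, RPL39L and RPS27L), which leaves 78 other members, 32 of the small and 46 of the large subunit. RPL36AL was kept under the reading that A and L may both follow the digits.

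RNA was sequenced from A673 and SKNMC, established Ewing sarcoma cell lines that carry the EWS-FLI1 fusion. Cells of each line were exposed for 6 h to DMSO, the vehicle, or to THZ1 at 50 nM or 200 nM. THZ1 is a covalent inhibitor of CDK7, a kinase that phosphorylates the tail of RNA polymerase II and so acts in transcription initiation and pause release. The question was which transcripts decrease with a lower and a higher dose, and there are 6 libraries, 1 per condition, so no value could be set against a spread between replicates and no test was made.

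Each ribosome holds a single copy of nearly every ribosomal protein, and the genes are among the most strongly expressed in growing cells. Most of their mRNAs start with a terminal oligopyrimidine (TOP) tract, a C followed by an unbroken run of C and T. This tract places their translation under mTOR and LARP1. The mRNAs are short, abundant and stable. Excess ribosomal proteins are degraded, and free RPL5 and RPL11, bound to 5S rRNA, restrain MDM2. Several paralogs are used in particular tissues, such as RPL3L in striated muscle and RPL10L in male germ cells.

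The start of the transcript was read from RefSeq promoters (GRCh38.p14), in which 68 of the 86 genes were found. The windows shown hold the 15 bases before and the 15 from the annotated first base, with the unbroken run of C and T through that base in capitals (none where that base is A or G). They were chosen to set genes with a large difference with THZ1 (RPS12, RPL39, RPL22) and paralogs beside the genes they resemble. RPS26 was added to show a start without the tract at the annotated first base, although a run of C and T begins just after it. Each of the genes shown has 1 annotated start.
RPS12: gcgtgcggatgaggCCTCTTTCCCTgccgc
RPL39: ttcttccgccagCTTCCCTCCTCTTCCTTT
RPL22: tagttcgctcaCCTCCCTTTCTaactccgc
RPL22L1: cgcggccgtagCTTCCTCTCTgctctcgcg
RPS27: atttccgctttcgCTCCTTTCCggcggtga
RPS27L: aagttgatgccgagcgcagatcgcttgcag
RPL36A: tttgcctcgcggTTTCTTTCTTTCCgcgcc
RPL36AL: ctgTTTCTTCCCTTTCCTgttaggcgagag
RPL7L1: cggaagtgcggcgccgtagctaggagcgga
RPS26: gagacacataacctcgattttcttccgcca
The windows lie, in GRCh38.p14, as follows: RPS12 at chr6:132814554-132814583 (plus strand), RPL39 at chrX:119791616-119791645 (minus strand), RPL22 at chr1:6199581-6199610 (minus strand), RPL22L1 at chr3:170870181-170870210 (minus strand), RPS27 at chr1:153990747-153990776 (plus strand), RPS27L at chr15:63157463-63157492 (minus strand), RPL36A at chrX:101390996-101391025 (plus strand), RPL36AL at chr14:49620612-49620641 (minus strand), RPL7L1 at chr6:42879601-42879630 (plus strand) and RPS26 at chr12:56041903-56041932 (plus strand).
The sequence searched was C at the annotated first base followed by at least 4 bases that are each C or T, on the gene's own strand. It was found in 46 of 77 entries (59.7%) of the members that are not paralogs, against 4.07% of all 35116 promoter entries and 4.94% of entries of other active genes. By gene, 46 of 62 held it (74.2%). Among the paralogs, 1 of 7 entries held it, that of RPL22L1, while the annotated start of RPL36AL lies near the end of a pyrimidine run. No match says only that these letters are not at the annotated base.

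FPKM is the number of fragments of a gene per length of transcript and per sequenced total, so it is a relative level, and genes can be set beside each other. The number of reads behind a value is unknown. All 7 Ewing sarcoma markers listed for the check, CD99, CCND1, NKX2-2, NR0B1, STEAP1, PRKCB and LIPI, were above 1 FPKM in every library. Their summed level was 1368 to 1592 FPKM in A673 and 715 to 1052 FPKM in SKNMC. Of the haematopoietic markers, CD3E stayed below 1 FPKM in every library, but PTPRC was 7.90 to 13.1 FPKM in SKNMC. Of 4 fibroblast markers, DCN and LUM were below 1 FPKM in A673 and between 23.5 and 54.5 FPKM in SKNMC. With DMSO, COL1A2 was 88.8 FPKM in A673 and 62.6 FPKM in SKNMC, and COL1A1 was 9.04 and 30.4 FPKM. The list's sum in A673 was 98.4 FPKM with DMSO and 107 FPKM at 200 nM. In SKNMC the sum was 147 and 239 FPKM. The 4 epithelial markers summed to 125 to 137 FPKM in A673 and to 86.4 to 155 FPKM in SKNMC, nearly all of it KRT18 and KRT8, with EPCAM and CDH1 below 1 FPKM. The endothelial CDH5 and VWF, with PECAM1 not matched, were below 1 FPKM everywhere. What part these levels have in the differences between libraries was not tested. A gene was called active where it had more than 1 FPKM in the DMSO library of its line, which 84 members did in both lines. The exceptions were RPL3L, highest at 0.10 FPKM in A673 at 200 nM, and RPL10L, highest at 0.0501 FPKM in SKNMC at 200 nM and listed at 0 in 2 libraries.

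Most members were expressed at a high and rather even level. The 76 genes used for summaries of level leave out the paralogs and 2 other members, which lay far below the 76 in every library. The evenness described here does not cover those 2. The median of the 76 in A673 was 735 FPKM with DMSO, 873 FPKM with the low dose and 973 FPKM with the high dose. The same medians in SKNMC were 1073, 1378 and 1609 FPKM. The median over all active genes moved the other way, from 14.1 FPKM with DMSO to 8.26 FPKM at 200 nM in A673 and from 13.5 to 7.52 FPKM in SKNMC. The middle of the distribution was narrow, with an upper quartile 1.62 to 1.76 times the lower one in the 6 libraries. Together the members took 13.7%, 16.1% and 17.8% of the summed FPKM of all listed genes in A673, in the order DMSO, 50 nM, 200 nM. In SKNMC the same share was 19.0%, 24.7% and 29.7%. Of the 100 genes with the highest FPKM, 52 to 55 were members in A673 and 69 to 71 in SKNMC.

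**Figure D1:**
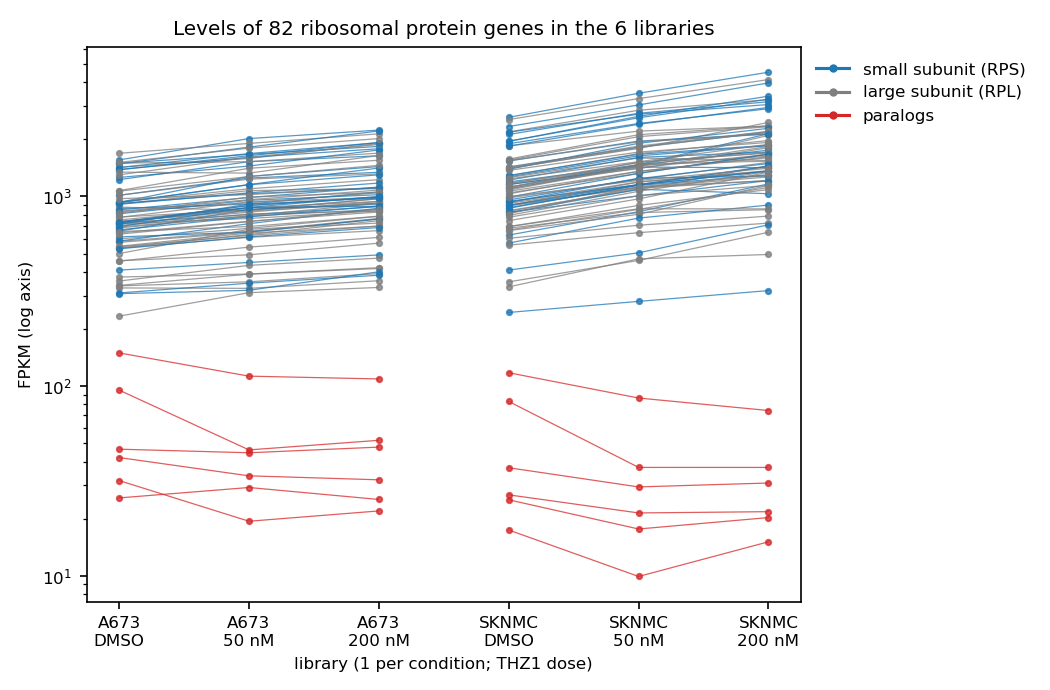
FPKM on a log axis (y) of 82 active ribosomal protein genes, the 76 used for summaries of level and 6 paralogs, in the 6 libraries (x), each gene a line within its cell line, coloured by subunit or as a paralog. The main band lies between 234 and 2238 FPKM in A673 and between 244 and 4519 FPKM in SKNMC, with the paralogs below it in every library.

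The highest member on average over the DMSO libraries was RPS27, a small subunit protein with a zinc finger. It stood at 1383, 1640 and 1924 FPKM in A673, in this and all later cases in the order DMSO, 50 nM, 200 nM. In SKNMC its levels were 2612, 3499 and 4519 FPKM, the highest of any member in all 3 libraries. RPL37A followed with 1423, 1586 and 1903 FPKM in A673 and 2543, 3280 and 4132 FPKM in SKNMC. RPS19, the gene most often mutated in Diamond-Blackfan anaemia, had 1558, 2019 and 2238 FPKM in A673 and 2337, 3037 and 3968 FPKM in SKNMC. RPL10, which completes the large subunit late in its assembly, was highest in A673 with DMSO at 1688 FPKM. At the other end of the band, RPL22 was the lowest of the 76 genes in A673, with 234, 311 and 331 FPKM. RPS26, which lies at the mRNA exit channel, was the lowest of the 76 in SKNMC, with 244, 280 and 319 FPKM. The highest of the 76 genes stood 10.7 to 14.2 times above the lowest in the 3 libraries of SKNMC and 6.49 to 7.22 times above it in those of A673. The order of levels was much the same with and without THZ1, with a Spearman correlation of 0.97 to 0.99 across the 76 genes between libraries of 1 line and of 0.76 to 0.82 between lines. Genes are not replicates, and neighbours in this order cannot be told apart without replicates.

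Among these 76 genes, the small subunit's FPKM summed to 76.5%, 79.9% and 80.6% of the large subunit's in A673. In SKNMC the same ratio was 77.8%, 79.0% and 80.0%. Both sums were higher with THZ1, and the ratio moved by a few percentage points.

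With THZ1, nearly every ribosomal protein gene had a higher FPKM than with DMSO while most other active genes had a lower one. Differences are given as log2 of (FPKM + 1) with THZ1 over (FPKM + 1) with DMSO. In A673 at 50 nM, 74 of 84 active members were higher, and their median was 0.20. Over all 11077 active genes 29.9% were higher and the median was -0.27. In A673 at 200 nM, 78 of 84 members were higher, with a median of 0.36, against 29.6% of all active genes and a median of -0.40. In SKNMC at 50 nM, 78 of 84 were higher, with a median of 0.37, against 27% of all 11896 active genes and a median of -0.32. In SKNMC at 200 nM, 78 of 84 were higher, with a median of 0.59, against 19.2% of all active genes and a median of -0.55. FPKM shows no absolute amount, so a higher share of the RNA and more RNA per cell cannot be told apart, nor can fewer cells of a kind from less RNA per cell. When libraries were scaled by the 75th percentile of the genes active in both lines, the share of all active genes that were higher became 44.4% to 45.8% in the 4 comparisons, and all 78 members that are not paralogs were higher in each.

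At a difference of at least 1.5-fold, the members were few except in SKNMC at 200 nM. There, 43 of 84 members were at least 1.5-fold higher, against 2.81% of all active genes. In SKNMC at 50 nM no member reached this size, against 2.43% of all active genes. In A673 no member did at 50 nM, against 1.78%, and 2 did at 200 nM, RPS12 and RPS21, against 1.7%, a share near the background. At least 1.5-fold lower were 2 members in A673 at 50 nM (31.8% of all active genes), 1 at 200 nM (41.1%), 2 in SKNMC at 50 nM (33.5%) and 2 at 200 nM (48%). Each of these was a paralog. RPL7L1 was among them in all 4 comparisons, with RPL39L at 50 nM in both lines and RPL36AL in SKNMC at 200 nM.

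**Figure D2:**
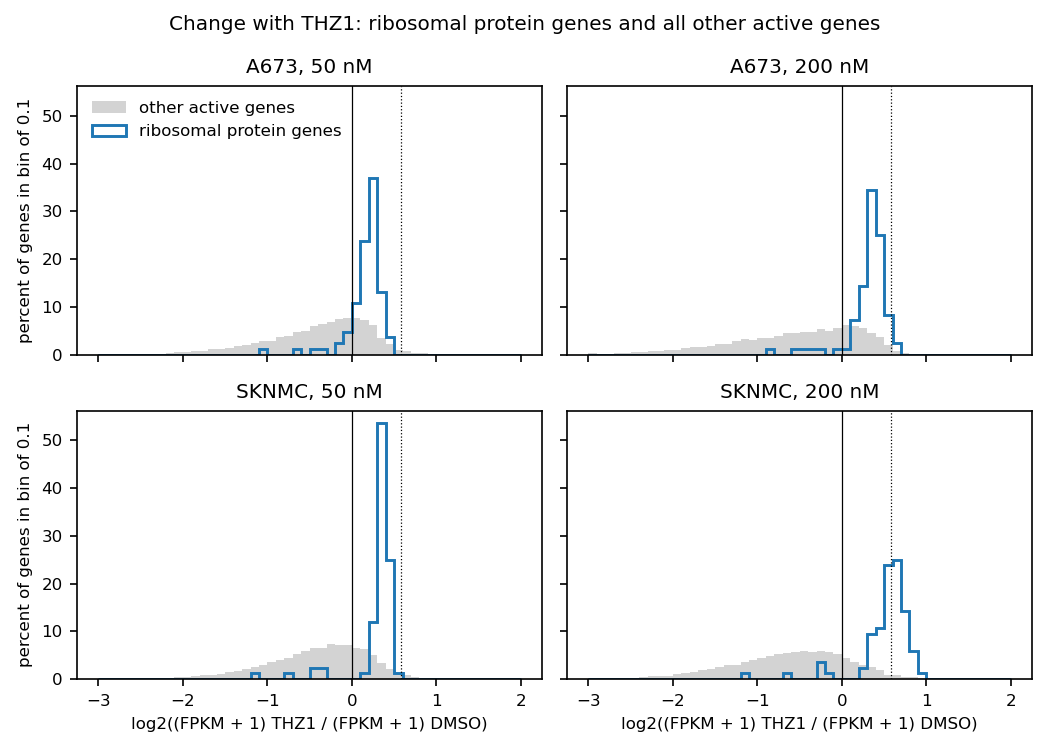
Percent of genes (y) by log2 of (FPKM + 1) with THZ1 over (FPKM + 1) with DMSO (x, bins of 0.1) in the 4 comparisons, for the 84 active ribosomal protein genes (blue outline) and all other active genes (grey, values beyond the axis placed in the end bins). The dotted line marks 1.5-fold; the members sit in a narrow peak to the right of 0, with medians of 0.20, 0.36, 0.37 and 0.59, and the few to the left include paralogs and, close to 0 in A673 at 50 nM, RPL13, RPL13A and RPL23.

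The members were also set beside abundant genes. Among other genes above 200 FPKM with DMSO, 268 in A673 had medians of 0.17 with the low dose and 0.24 with the high dose. In SKNMC 222 such genes had medians of 0.15 and 0.09. The medians of these abundant genes thus lay above that of all active genes, and below that of the members in each comparison. Whether the members differ from other stable mRNAs of the same abundance was not tested.

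The members without the paralogs lay close together. The middle of these 78 genes spanned 0.11 on the log2 scale in A673 at 50 nM, 0.13 at 200 nM, 0.08 in SKNMC at 50 nM and 0.17 at 200 nM, while all active genes spanned 0.79 to 1.08 between their quartiles. Small subunit genes had a median of 0.23 in A673 at 50 nM and large subunit genes 0.20. At 200 nM these were 0.40 and 0.36. In SKNMC they were 0.38 and 0.36 at 50 nM, and both were 0.60 at 200 nM. The 33 proteins shared with bacteria had medians of 0.22, 0.37, 0.37 and 0.58 in the 4 comparisons, in the order A673 50 nM, A673 200 nM, SKNMC 50 nM and SKNMC 200 nM. The other 45 had 0.20, 0.37, 0.37 and 0.60, close to the former in each comparison.

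Of the small subunit genes, RPS12, a surface protein of the small subunit, had the largest difference in A673. Its levels there were 931, 1276 and 1437 FPKM, differences of 0.45 and 0.63. In SKNMC it went from 1389 to 1907 and 2286 FPKM, differences of 0.46 and 0.72. RPS21 was next in A673 at 200 nM, with 929 and 1412 FPKM, a difference of 0.60. RPS2, whose protein is chaperoned by PDCD2, and RPSA, also known as the laminin receptor, both differed by 0.58 there. In SKNMC at 200 nM RPS20, a protein of the head of the subunit, was first of all members. It had 1094, 1469 and 2141 FPKM, differences of 0.42 and 0.97. In A673 RPS20 had 927, 1153 and 1300 FPKM, differences of 0.31 and 0.49. RPS15, another protein of the head, had 626, 831 and 1164 FPKM in SKNMC, with a difference of 0.89 at 200 nM. In A673 the values of RPS15 were 714, 911 and 978 FPKM, and the difference at 200 nM was 0.45.

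Among the smallest differences of the small subunit were those of RPS28 (0.06) in A673 at 50 nM, of RPS26 in SKNMC at 50 nM (0.19) and of RPS4X and RPS7 in SKNMC at 200 nM. RPS4X, the X-linked form of eS4, had 1155, 1428 and 1417 FPKM in SKNMC, differences of 0.31 and 0.30. RPS7 had 820, 1092 and 1033 FPKM there, differences of 0.41 and 0.33. RPS28 was nearly level in A673 at 50 nM (307 and 320 FPKM, 0.06), yet differed by 0.79 in SKNMC at 200 nM (409 and 709 FPKM). RPS6, the target of the S6 kinases, differed by 0.13 and 0.27 in A673 and by 0.29 and 0.53 in SKNMC, below the median of the small subunit genes in each comparison.

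Of the large subunit genes, RPL22 and RPL39 led at 50 nM in both lines. RPL39, a very short protein of the exit tunnel, had levels of 500.0, 671 and 724 FPKM in A673, differences of 0.42 and 0.53. In SKNMC it had 810, 1126 and 1291 FPKM, differences of 0.47 and 0.67. RPL22, a protein not essential for translation itself, differed by 0.41 and 0.50 in A673 and by 0.49 and 0.57 in SKNMC. In SKNMC at 200 nM the leading genes included RPL36 (354 and 647 FPKM, 0.87) and RPL8 (1174 and 2098 FPKM, 0.84), neither of which was among the first 5 in the other THZ1 comparisons. RPL8 lies at the core of the peptidyl transferase region. In A673 these genes differed by 0.40 and 0.42 at 200 nM.

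The proteins of the P stalk, RPLP0, RPLP1 and RPLP2, recruit the translation factors. Like the members without the paralogs as a whole, these genes lay close together. Their differences were 0.30 to 0.39 in A673 at 50 nM and 0.45 to 0.53 at 200 nM. In SKNMC they were 0.39 to 0.44 at 50 nM and 0.58 to 0.62 at 200 nM. The pair of the 5S particle did not move equally in SKNMC at 200 nM. RPL11 had 1573, 2116 and 2358 FPKM there, differences of 0.43 and 0.58. RPL5 had 1257, 1594 and 1547 FPKM, differences of 0.34 and 0.30, the latter among the smallest of all members that are not paralogs. Other small differences in SKNMC at 200 nM were those of RPL14 (0.31), RPL15 (0.32) and RPL4 (0.35).

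Of the 78 members other than paralogs, 5 were lower with THZ1 than with DMSO in A673 at 50 nM. Among them, RPL13A, known also for silencing the translation of particular transcripts, had 878 and 846 FPKM (-0.05). RPL13 had 1343 and 1327 FPKM (-0.02) and RPL23 had 329 and 328 FPKM (-0.01). All 5 were higher at 50 nM when libraries were scaled by the 75th percentile of active genes. RPL13A, RPL13 and RPL23 were higher at 200 nM, by 0.15, 0.29 and 0.13. In SKNMC all 78 were higher at both doses, with every scaling tried.

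**Figure D3:**
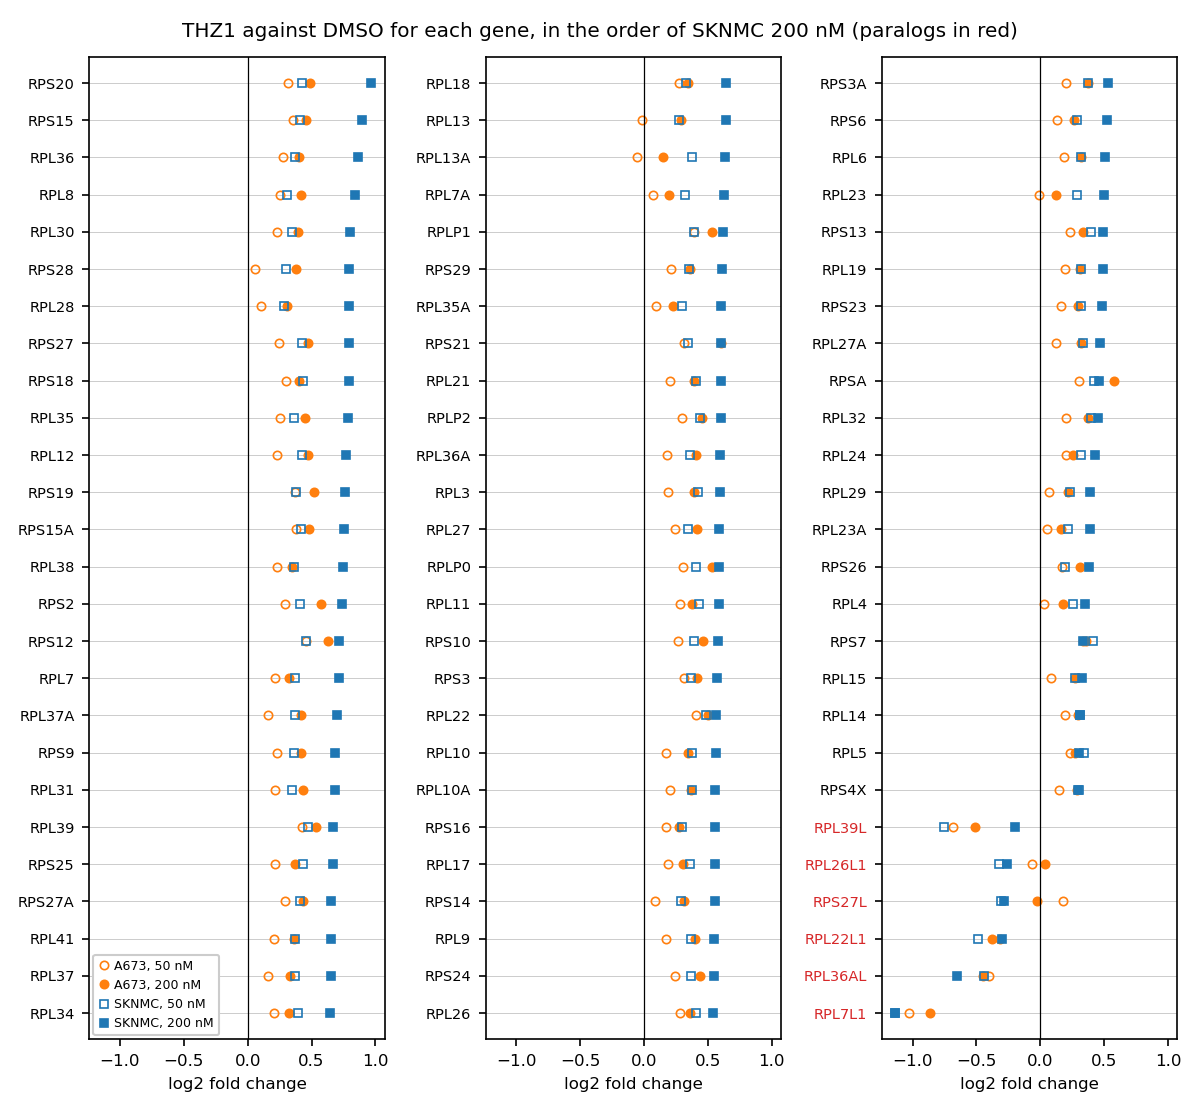
Log2 difference between THZ1 and DMSO (x) of 78 of the 84 active genes (y), paralogs included, sorted by SKNMC at 200 nM from RPS20 at 0.97 down to RPL7L1 at -1.13, with A673 as circles and SKNMC as squares, open for 50 nM and filled for 200 nM. The filled squares spread to the right in the first column while the open symbols and the circles remain nearer each other, and the 6 genes at the foot of the last column are paralogs.

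The 9 Diamond-Blackfan anaemia genes listed, among them RPS19, RPL5, RPL11, RPS26, RPS24, RPL35A, RPS7 and RPS10, had medians of 0.24, 0.36, 0.38 and 0.54 in the same order of comparisons. Those of the 78 members were 0.21, 0.37, 0.37 and 0.60. Each of those named was higher with THZ1 in each comparison. Only 2 of the 9, RPS19 (0.76) and RPL35A (0.61), were at least 1.5-fold higher in SKNMC at 200 nM, against 51.2% of the active members and 2.81% of all active genes.

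The doses share a DMSO library, so the THZ1 libraries were set directly against each other. In A673, 80 of 84 members were higher at 200 nM than at 50 nM, against 48.3% of all active genes. In SKNMC, 77 of 84 were, against 37.9% of all active genes. The median difference between doses was 0.16 in A673 and 0.22 in SKNMC for the members, and -0.02 and -0.14 for all active genes. Levels in the order DMSO, 50 nM, 200 nM went up at each step for 73 of 78 members in A673, against 14.6% of all active genes, and for 73 of 78 in SKNMC, against 7.63%. The exceptions in SKNMC included RPL5, RPS4X, RPS7 and RPL14, each higher at 50 nM than with DMSO and level or lower, by at most 0.08, between the doses. For these genes the step turned to a higher level at 200 nM when libraries were scaled by the genes that are not members. Apart from the paralogs, the largest steps between doses in SKNMC were those of RPS20 (0.54), RPL8 (0.53) and RPL28 (0.51), and in A673 those of RPS28 (0.32), RPL13 (0.31) and RPS21 (0.29).

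The lines have separate DMSO libraries. At 50 nM, 73 of 78 members were higher with THZ1 in both lines, and 77 had a larger difference in SKNMC than in A673, the exception being RPLP1 (0.39 in both). Of the 10574 genes active in both lines, 21.3% were higher in both and 46.6% had a larger value in SKNMC. At 200 nM, 77 were higher in both, and 76 had a larger difference in SKNMC, the exceptions being RPSA (0.58 in A673 and 0.46 in SKNMC) and RPS7 (0.36 and 0.33), against 14.9% and 38.1% of the genes active in both lines. Across the 78 genes the differences in A673 and SKNMC had a Spearman correlation of 0.62 at 50 nM and 0.56 at 200 nM, given as a description. The genes share the library, its depth and the scaling of FPKM.

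Most paralogs were lower with THZ1 while the genes they resemble were higher. Of the 6 active paralogs, 5 were lower with THZ1 in A673 at each dose and 6 in SKNMC at each dose, with medians of -0.36, -0.42, -0.46 and -0.29. Of all active genes 70.1%, 70.4%, 73% and 80.8% were lower, so the paralogs' counts are near the background. When libraries were scaled by the 75th percentile of active genes, 4, 4, 6 and 2 of the 6 were lower, and the median in SKNMC at 200 nM was 0.23. All 8 paralogs together took 0.623% of the members' summed FPKM with DMSO and 0.351% with the high dose in A673, and 0.348% and 0.148% in SKNMC.

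RPL7L1, a relative of RPL7, had the largest difference of the paralogs in each comparison. It lies at chr6:42847355-42857663 of hg19 on the plus strand. Its levels were 95.3, 46.1 and 51.8 FPKM in A673, differences of -1.03 and -0.87. In SKNMC it was 83.0, 37.3 and 37.2 FPKM, a difference of -1.13 at both doses. RPL7 itself had 752, 871 and 941 FPKM in A673 and 1117, 1444 and 1835 FPKM in SKNMC. RPL7L1 thus stood at 12.7% of the level of RPL7 with DMSO and at 5.29% with the low dose in A673, and at 7.43% and 2.58% in SKNMC. It was lower with THZ1 under every scaling.

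RPL36AL, which encodes a protein nearly identical to that of RPL36A, had 149.6, 113 and 109 FPKM in A673. In SKNMC it had 118, 86.5 and 74.3 FPKM, so its differences were -0.40 and -0.45 in A673 and -0.44 and -0.65 in SKNMC. RPL36A differed by 0.18 and 0.41 in A673 and by 0.36 and 0.59 in SKNMC. RPL22L1, whose level is known to be restrained by RPL22, had 42.0, 33.6 and 32.1 FPKM in A673 and 25.1, 17.6 and 20.3 FPKM in SKNMC. Its differences were -0.31, -0.38, -0.49 and -0.30, the last turning to 0.22 when scaled by the 75th percentile. This is the paralog whose start holds a TOP tract like that of RPL22, printed above.

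RPL39L, a form of RPL39 best known from male germ cells, had 31.8, 19.4 and 22.0 FPKM in A673 and 17.4, 9.91 and 15.1 FPKM in SKNMC. The differences were -0.68, -0.51, -0.76 and -0.19, and the last turned to 0.31 when scaled by the 75th percentile and to 0.03 when scaled by the genes that are not members. RPS27L, a p53 target, was the exception in A673 at 50 nM, with 25.7 and 29.2 FPKM (0.18), and it stood at 25.2 FPKM at 200 nM (-0.03). In SKNMC it had 26.7, 21.4 and 21.8 FPKM, differences of -0.30 and -0.28. RPL26L1 had 46.5, 44.5 and 47.7 FPKM in A673, differences of -0.06 and 0.04, and 37.1, 29.4 and 30.8 FPKM in SKNMC, differences of -0.33 and -0.26. Of these last values, those of RPS27L and RPL26L1 in SKNMC at 200 nM turned to 0.23 and 0.26 when scaled by the 75th percentile. In the same way RPS27L in A673 at 200 nM turned to 0.31 and RPL26L1 in A673 at 50 nM to 0.18, and scaling by the genes that are not members also turned both, to 0.03 and 0.00039.

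**Figure D4:**
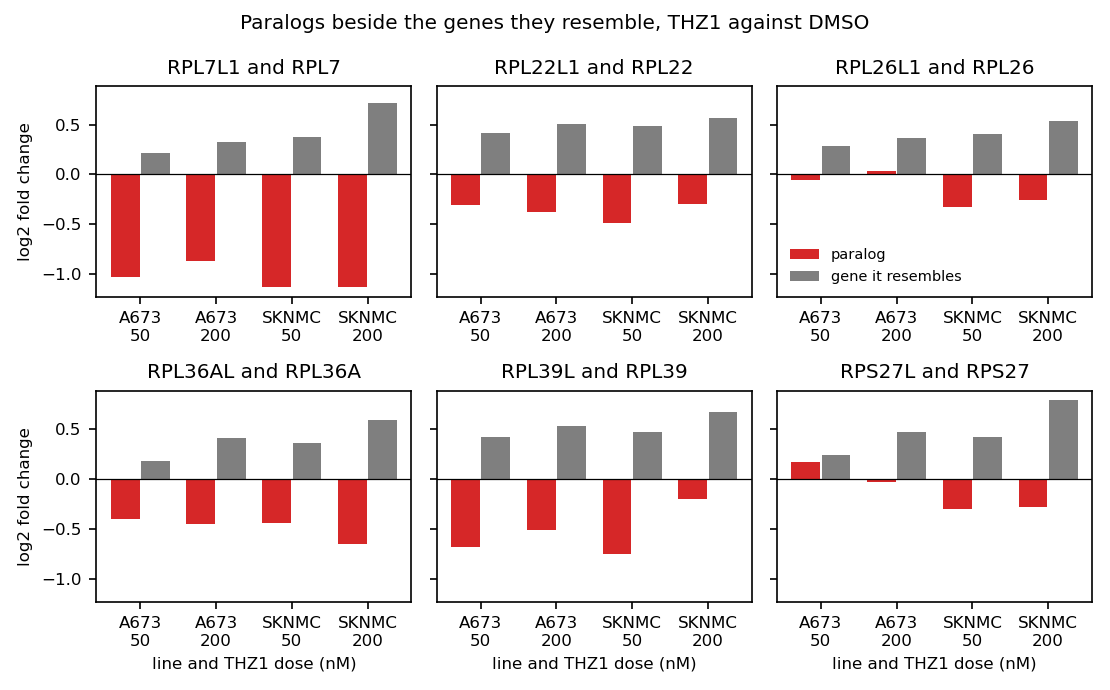
Log2 difference between THZ1 and DMSO (y) of each of 6 active paralogs (red) and of the gene it resembles (grey), in A673 and SKNMC at 50 nM and 200 nM (x). The grey bars are all above 0, from 0.18 to 0.79, and the red ones are below 0 except for RPS27L in A673 at 50 nM (0.18) and RPL26L1 in A673 at 200 nM (0.04).

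Each of the 6 active paralogs was also an outlying member, over 3.5 scaled median absolute deviations from the members' median, in at least 2 comparisons.

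With DMSO alone, the members were higher in SKNMC than in A673. Of 84 members, 70 were higher, against 55.2% of all 11855 active genes, and their median difference was 0.44 against 0.09. At least 1.5-fold higher were 28 members, against 25.2% of all active genes, so the members' share at this size was 33.3%, nearer the background than for the direction alone. At least 1.5-fold lower were 2 members, RPL39L (-0.83) and RPL22L1 (-0.72), against 17.6% of all active genes. The members spread more between lines than between treatments, with a span between quartiles of 0.43 for the 78 members.

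RPL23 had 329 FPKM in A673 and 996 FPKM in SKNMC, a difference of 1.59. RPL19 had 533 and 1372 FPKM (1.36), RPL27 had 456 and 1065 FPKM (1.22), and all 3 lie on chromosome 17. Next came RPS6 on chromosome 9, with 409 and 943 FPKM (1.20), and RPL14 on chromosome 3, with 340 and 695 FPKM (1.03). Lower in SKNMC were RPL8, with 1512 and 1174 FPKM (-0.36), RPS26, with 310 and 244 FPKM (-0.34), and RPL35, with 1066 and 843 FPKM (-0.34).

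Genes beside the members differed in the same direction in many places. For each of the 78 members, the median difference between lines was taken over the other active genes within 2 Mb on either side, between 5 and 115 genes. Around RPL23 it was 1.13, around RPL19 1.10, around RPL27 0.92, around RPL14 0.77 and around RPS6 0.58. Around RPL35 it was -0.34 and around RPL8 -0.17, while around RPS26 it was 0.10. Across the 78 members, their own difference and that of their neighbours had a Spearman correlation of 0.64, a description over genes of the same 2 libraries, some of which share neighbours. DNA copy number was not measured in these data, and its part was not tested.

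**Figure D5:**
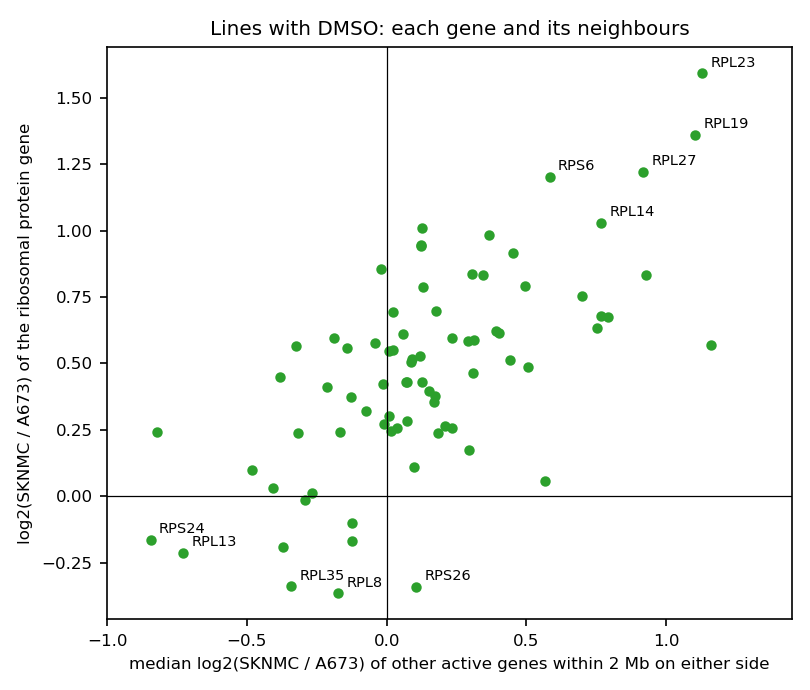
Difference between lines with DMSO, log2 of SKNMC over A673, of each of 78 ribosomal protein genes (y) against the median of the same difference over other active genes within 2 Mb (x). Points further right tend to lie higher, as for RPS24 (neighbours -0.84, gene -0.16) and RPL23 (neighbours 1.13, gene 1.59), and RPS26 lies below its neighbours (0.10 and -0.34).

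The genes share features beyond their level. The annotated transcripts of the 77 members with a value that are not paralogs had a median length of 785 bases and 5 exons, against 3295 bases and 9 exons for the active genes of A673. The median GC content of these transcripts was 47.6%, beside 47.8% for the active genes of A673. Their genes spanned a median of 5111 bases, against 31710 bases. Among these 77 members the difference with THZ1 was larger for shorter transcripts. Spearman correlations with length were -0.41 in A673 at 50 nM, -0.32 at 200 nM, -0.42 in SKNMC at 50 nM and -0.28 at 200 nM. Over active genes that are not members the same correlations were 0.005, -0.22, 0.07 and -0.07. Annotated lengths may differ from those of the transcripts in these cells, and FPKM is divided by length. Across the 77 members, GC content had correlations of 0.13, 0.19 and 0.07 in the first 3 comparisons and 0.35 in SKNMC at 200 nM. In that comparison the 39 members at or above the median GC content had a median difference of 0.64 and the 38 below it 0.56. Members that host an annotated small nucleolar RNA in an intron, 29 of 78, had medians of 0.20, 0.37, 0.38 and 0.59, against 0.21, 0.37, 0.36 and 0.60 for the 49 without.

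Members with and without the TOP tract at the annotated first base differed little in their medians. The 46 members with it there had medians of 0.23, 0.38, 0.37 and 0.60. The 16 with an entry that lacks it there had 0.19, 0.36, 0.35 and 0.53. RPS12, RPL39 and RPL22, printed above, are in the former set, and so is RPL14, which had among the smallest differences in SKNMC at 200 nM. RPS15 (0.89 in SKNMC at 200 nM) and RPS4X (0.30) are both in the latter. The 16 members with no entry had medians of 0.21, 0.36, 0.37 and 0.66. Of the 62 with an entry, 54 were counted as holding a run of at least 7 C or T near that base. RPS26 was not counted, although its printed window shows such a run just after that base. The split therefore cannot separate mRNAs that carry a tract from mRNAs that do not.

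Related genes outside the rule were listed to place the members in their pathway. Among ribosomal proteins with other symbols, FAU, which encodes eS30 fused to a ubiquitin-like protein, differed by 0.24, 0.42, 0.29 and 0.37. GNB2L1 (RACK1), a scaffold on the small subunit, differed by -0.02, 0.17, 0.18 and 0.39. Of 16 other genes with TOP mRNAs, mostly translation factors, 13 were higher with THZ1 in each of the 4 comparisons. Of all active genes 29.9%, 29.6%, 27% and 19.2% were higher. The medians of the 16 were 0.16, 0.23, 0.30 and 0.32. Genes above 200 FPKM with DMSO that are not members, some of the 16 included, had 0.17, 0.24, 0.15 and 0.09. Whether the 16 differ from other abundant genes was not tested. In SKNMC the elongation factor EEF1A1 had 4400 FPKM with DMSO and is listed at 0 at either dose. No difference is given there, and the counts of 13 in SKNMC hold it as lower. It is the only gene above 100 FPKM in 1 library of a line that is listed at 0 in another, and no member was. Without it, a choice made after its values were seen, 13 of 15 were higher in SKNMC at each dose, with medians of 0.30 and 0.33. EEF1D (0.81) and PABPC1 (0.71) had the largest differences in SKNMC at 200 nM, and EIF4B was lower in A673 (-0.52 and -0.76).

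Of the 7 listed regulators of TOP mRNAs, 4 were lower in A673 at 50 nM, 5 at 200 nM, 6 in SKNMC at 50 nM and 5 at 200 nM, with medians of -0.25, -0.56, -0.18 and -0.77, the third turning to 0.10 when scaled by the 75th percentile. Of all active genes 70.1%, 70.4%, 73% and 80.8% were lower. As deposited, the 6 of 7 in SKNMC at 50 nM lie little above that share, and the other counts are near or below it. The 6 of 7 became 2 of 7 when scaled by the 75th percentile, against 55.6% of all active genes. Scaling by the genes that are not members made it 4 of 7, against 65.2%. LARP1, which binds the TOP tract and cap, had 46.4, 49.6 and 29.1 FPKM in A673 and 114, 108 and 63.3 FPKM in SKNMC. RPTOR, the mTORC1 subunit that recruits substrates, differed by -1.12 in A673 and -0.90 in SKNMC at 200 nM. In contrast, RPS6KB2 differed by 0.14, 0.28, 0.14 and 0.03 in the 4 comparisons, and EIF4EBP1 by 0.15, 0.41, -0.18 and 0.28. Chaperones and escorts that carry new ribosomal proteins had the lowest medians of these lists, -0.49, -0.82, -0.59 and -1.06, all of them below 0 with every scaling. Of 8, 6 were lower in A673 at each dose, 7 in SKNMC at 50 nM and 8 at 200 nM, which in A673 is close to the same background. GRWD1, a chaperone of RPL3, had 44.4, 12.7 and 9.73 FPKM in A673 and 34.3, 16.6 and 6.86 FPKM in SKNMC. HEATR3, which escorts RPL5, had 20.2, 5.27 and 6.91 FPKM in A673 and 9.63, 3.16 and 2.61 FPKM in SKNMC. TSR2, the escort of RPS26, stayed between 20.4 and 26.6 FPKM in all 6 libraries.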

How the data were processed

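RNA was measured in 6 libraries, 1 for each condition, named by the sample titles. The authors made TruSeq libraries, sequenced 100-bp paired-end reads and aligned them to hg19 with STAR and Ensembl 75. Per the paper, StringTie gave the FPKM values, while the submitters' processing notes name Cufflinks. The authors deposited FPKM per gene, without counts. The table's title speaks of averages, although the labels give 1 library per condition. The table also holds the authors' own log2 fold changes, which were not used. The strand setting and the handling of reads that fit several genes are not given in the sources used here, so members may share reads with pseudogenes, the genes that overlap 34 of them, and the readthrough genes RPL17-C18orf32, RPS10-NUDT3 and RPL36A-HNRNPH2.

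Differences were log2 ratios of FPKM with a pseudocount of 1, for genes above 1 FPKM in the DMSO library of the line, and above a mean of 1 FPKM over the DMSO libraries for the comparison of lines. Python 3.11.15 and pandas 2.3.3 were used, and the calculations were tested on simulated data. Depth is unknown, so no interval for counting error is given. Without replicates there is no test, and values are set beside those of all active genes. The members and lists were chosen with earlier results of these data known. Named genes were the 5 highest and 5 lowest members in level and in each comparison, all paralogs, members listed at 0, members over 3.5 scaled median absolute deviations from the members' median, and members opposite in the lines; others named, and the 2 members left out of the level summaries, were chosen after their values were seen. Some genes that enter the counts and medians are not reported here by name, in the text or the plots. Alternatives were a pseudocount of 0.1, a minimum of 10 FPKM or none, 3 rescalings, leaving out paralogs or members listed at 0, and a lower fold threshold. Lengths, exons, GC content and small nucleolar RNAs came from GENCODE release 44 on GRCh37, and starts from RefSeq. Levels of the Y-linked members are not reported here.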

Additional observations from a re-analysis of the deposited data

How the results depend on the processing

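Of 76 alternative values for the members' medians and counts, 58 stayed within 0.1 (medians) or 1.5 times (counts) of the reported value, 18 moved and 0 changed direction. With a pseudocount of 0.1 FPKM, 1 member was at least 1.5-fold higher in SKNMC at 50 nM, not 0. Scaling by the 75th percentile of active genes gave medians of 0.45 and 0.71 in A673 and 0.64 and 1.12 in SKNMC at 50 and 200 nM, with 7, 69, 62 and 78 members at least 1.5-fold higher, against 5.91%, 13.7%, 8.003% and 14.95% of all active genes, so that the 7 of 84 in A673 at 50 nM are near the background. That scaling shifted the median of all active genes by 0.21, 0.30, 0.24 and 0.45. Scaling by the genes that are not members gave medians of 0.49 and 0.82 in SKNMC, shifted all active genes there by 0.10 and 0.20, and put 7 members at least 1.5-fold higher in A673 at 200 nM and 3 and 72 in SKNMC, against 2.83%, 3.93% and 6.33% of all active genes. At a lower threshold, a log2 difference of 0.32, 8, 52, 59 and 75 members were higher, against 7.43%, 10.9%, 8.49% and 7.50% of all active genes. None of these scalings gives RNA per cell. Of 560 alternative values for 35 named members, 15 changed sign, in 7 members, none of them among differences of at least 1.5-fold. No paired analysis was possible because each condition has 1 library.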
